A study of Mus musculus with 6 samples.

Results

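Sox2, Pitx1, Trp63, Klf4 and Klf5 encode 5 transcription factors of squamous epithelium, and their transcripts were followed in chemically induced mouse skin tumours with and without the epidermal fatty acid binding protein. The members were chosen by their known roles together with earlier results of these arrays, among them the EKO minus WT differences of Sox2 and Pitx1. Their values are therefore given as a description, with no test. All 5 were measured, among 18193 genes on the array, by 12 of its 45101 probe sets. The brightest probe set by mean signal in the 6 arrays stands for the gene, and its other probe sets are listed beside it.

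The tumours came from E-FABP deficient (EKO) mice and from wild type (WT) mice, 3 of each genotype. E-FABP is a fatty acid carrier encoded by Fabp5. Mice of both genotypes had received DMBA, a carcinogen, and TPA, a phorbol ester that promotes tumour growth, over 5 months. The design text describes tumours digested to single cells and total RNA from the tumour cells, whereas the sample labels name keratinocytes. The sources used here do not give strain, sex, age or how the gene was disrupted. In such bulk RNA, fewer cells of a type and less RNA per cell cannot be told apart.

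SOX2 is a high mobility group factor of embryonic and tissue stem cells that is scarce in normal epidermis between hair follicles and is known to sustain squamous carcinoma cells. PITX1 is a homeodomain factor of the developing hindlimb, pituitary and oral epithelium, and in squamous carcinoma of mouse skin it has been described as binding with SOX2 and p63 at genes of self-renewal. p63, encoded by Trp63, maintains the basal layer of stratified epithelia. KLF4 drives differentiation and barrier formation in the upper epidermis and has been described as opposing the other 3, while KLF5 is most abundant in proliferating epithelium.

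RefSeq promoter sequences were at hand for 2 of the 5 genes, Sox2, whose levels differed most, and Klf4, whose levels differed least. They are shown because the same factors are described as acting on these genes. The 250 bases before the start site lie at chr3:34649745-34649994 on the plus strand for Sox2 and at chr4:55532476-55532725 on the minus strand for Klf4 (GRCm38.p6). Capitals mark letters that match any of 5 searched motifs, on either strand.
Sox2: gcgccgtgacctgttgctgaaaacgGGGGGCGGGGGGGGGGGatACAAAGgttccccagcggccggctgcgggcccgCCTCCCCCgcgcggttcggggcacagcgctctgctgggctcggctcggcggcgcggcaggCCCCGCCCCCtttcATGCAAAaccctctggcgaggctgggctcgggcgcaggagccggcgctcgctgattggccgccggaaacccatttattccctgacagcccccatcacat
Klf4: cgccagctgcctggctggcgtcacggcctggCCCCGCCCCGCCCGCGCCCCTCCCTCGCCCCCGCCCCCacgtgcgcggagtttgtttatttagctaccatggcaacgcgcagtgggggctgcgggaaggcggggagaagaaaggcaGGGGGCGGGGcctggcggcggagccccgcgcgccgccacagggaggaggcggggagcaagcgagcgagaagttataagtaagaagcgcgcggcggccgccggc
The KLF-type motif CCNCNCCC, in which N is any base, matched 9 times in each sequence, with overlapping matches counted and some lying in runs of G. At least 1 match was present in 45.9% of 32851 mouse promoters of that length. Both sequences are rich in G and C, at 72% for Sox2 and 74% for Klf4 against a median of 52.4%, a composition in which this motif is frequent. The Sox2 sequence held 1 SOX-type motif ACAANG, which begins 206 bases before the start site and is found in 36.3% of promoters. It also held 1 copy of ATGCAAA, part of the octamer bound by POU factors, 99 bases before the start site (4.12% of promoters). Neither of these matched the Klf4 sequence. The PITX-type motif TAATCC (6.25% of promoters) and a pair of p53 family cores, CATG and again CATG after 6 bases (0.49%), matched neither. These are matches of letters and were not tested as binding sites.

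The arrays' distributions were nearly equal after the authors' normalization, with medians of 5.41 to 5.43 and lower quartiles of 3.90 to 3.97 on the log2 scale. Fabp5 read 8.20, 8.30 and 7.98 in EKO replicates 1, 2 and 3, against 14.82, 14.94 and 14.80 in WT replicates 1, 2 and 3, so that every array matched its label. It was the 1 gene of 18193 that passed the adjusted threshold (limma, 0.0055% of genes, 0 higher and 1 lower in EKO). Keratinocyte markers were bright in every array: Krt14 read 14.66 to 14.80 and Krt5, its basal partner, 12.74 to 13.43. Over the 9 measured keratinocyte markers the mean level was 13.07 to 13.38 in EKO and 13.22 to 13.35 in WT tumours. Markers of fibroblasts, leukocytes and hair follicles were also present, and their levels are given with the results below.

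Sox2, measured by the single probe set 1416967_at, had higher values in all 3 EKO tumours than in any WT tumour. It read 7.87, 4.84 and 8.36 in EKO replicates 1, 2 and 3, against 3.56, 3.71 and 2.91 in WT replicates 1, 2 and 3. EKO replicates 1 and 3 were far above the rest, and EKO replicate 2 lay 1.12 above the highest WT value and below the median of its own array. The mean was 7.02 ± 1.91 in EKO and 3.40 ± 0.424 in WT tumours (SD, n = 3 each), a difference of 3.63 on the log2 scale and 12.4-fold between the geometric means. The 3 WT values lay under the lower quartile of their arrays, where the normalization narrows differences and no detection calls are given, so the size of the difference is not exact.

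Pitx1 showed the same arrangement of tumours. Its brighter probe set, 1449488_at, read 8.29, 6.69 and 9.39 in EKO replicates 1, 2 and 3, against 5.88, 5.77 and 5.15 in WT replicates 1, 2 and 3. EKO replicate 3 was highest and EKO replicate 2 again lay nearest the WT tumours, 0.81 above the highest of them. The mean was 8.13 ± 1.36 in EKO and 5.60 ± 0.391 in WT tumours, differing by 2.52 on the log2 scale (5.75-fold). The dimmer Pitx1 probe set, 1419514_at, read 6.65, 6.15 and 8.06 in EKO replicates 1, 2 and 3, against 5.80, 5.93 and 5.77 in WT replicates 1, 2 and 3. The EKO tumours kept their order in it, but the difference was smaller, at 1.12, and EKO replicate 2 lay 0.22 above the highest WT value.

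Among genes with higher EKO means, 2 had a larger difference than Sox2 and 7 had a larger one than Pitx1. Groups that did not overlap, with EKO above WT, were seen for 5.78% of genes. The EKO tumours varied more for both genes than for nearly all others: 7 genes had a larger SD among EKO tumours than Sox2 and 23 a larger one than Pitx1, and the median SD of all genes was 0.133. Among WT tumours, 887 genes had a larger SD than Sox2 and 1044 a larger one than Pitx1.

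**Figure D1:**
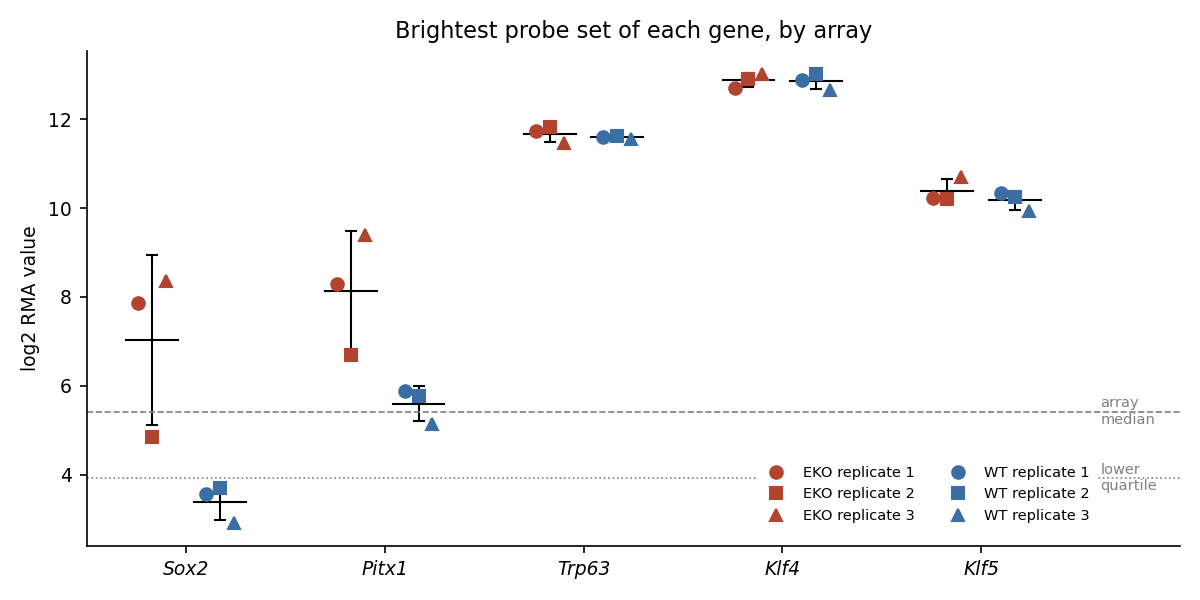
Log2 RMA values of the brightest probe set of each gene, with 3 EKO arrays on the left and 3 WT arrays on the right of each pair; horizontal bars are means and error bars are SD, and grey lines mark the mean array median and lower quartile. EKO replicate 2 lies between the other EKO arrays and the WT arrays for Sox2 and Pitx1, while the groups overlap for Trp63, Klf4 and Klf5.

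Trp63 was bright in every tumour, and its groups overlapped. Its brightest probe set, 1418158_at, read 11.73, 11.82 and 11.47 in EKO replicates 1, 2 and 3, against 11.61, 11.62 and 11.55 in WT replicates 1, 2 and 3. EKO replicate 3, the tumour with the highest Sox2 and Pitx1, had the lowest of these values. The mean was 11.67 ± 0.182 in EKO and 11.59 ± 0.0411 in WT tumours, a difference of 0.08 that lies within the spread of the EKO tumours. The sign turned with a mean over the 4 probe sets of the gene (-0.07).

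The 4 Trp63 probe sets did not read alike. The second, 1459581_at, read 7.62, 8.33 and 8.03 in EKO and 7.70, 7.89 and 7.94 in WT tumours, with overlap and a difference of 0.15. The third, 1452027_a_at, read 5.59, 5.81 and 5.72 in EKO and 6.34, 5.87 and 5.88 in WT tumours. In that probe set every EKO value lay below every WT value, narrowly, and the difference was -0.33. Among all genes 6.19% had groups that did not overlap with EKO below WT. The fourth, 1451876_a_at, lay below the array median in all 6 arrays, with a difference of -0.19. p63 is made in forms with and without an activation domain at its start, and the sources used here do not tell which of them each probe set reads.

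Klf4 showed the smallest difference of the 5 genes, with a signal at percentile 99.2 of all probe sets in both genotypes. Its brighter probe set, 1417394_at, read 12.71, 12.91 and 13.01 in EKO replicates 1, 2 and 3, against 12.89, 13.02 and 12.66 in WT replicates 1, 2 and 3. The groups overlapped, with means of 12.87 ± 0.155 in EKO and 12.85 ± 0.179 in WT tumours and a difference of 0.02. The dimmer probe set, 1417395_at, had a difference of -0.07 and also overlapped. The sign for Klf4 thus depended on the probe set, and it turned when EKO replicate 3 (-0.05) or WT replicate 3 (-0.08) was left out.

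Klf5 overlapped between the genotypes in all 3 of its probe sets. The brightest, 1451021_a_at, read 10.22, 10.21 and 10.70 in EKO replicates 1, 2 and 3, against 10.33, 10.26 and 9.94 in WT replicates 1, 2 and 3. EKO replicate 3 was highest and WT replicate 3 lowest, and the other 4 tumours lay between 10.21 and 10.33. The difference was 0.20, with means of 10.38 ± 0.281 in EKO and 10.18 ± 0.212 in WT tumours, and it shrank to 0.04 without EKO replicate 3 and to 0.08 without WT replicate 3. The second probe set, 1451739_at, had a difference of 0.36. The third, 1430255_at, lay under the lower quartile in every array and had a difference of 0.13.

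**Figure D2:**
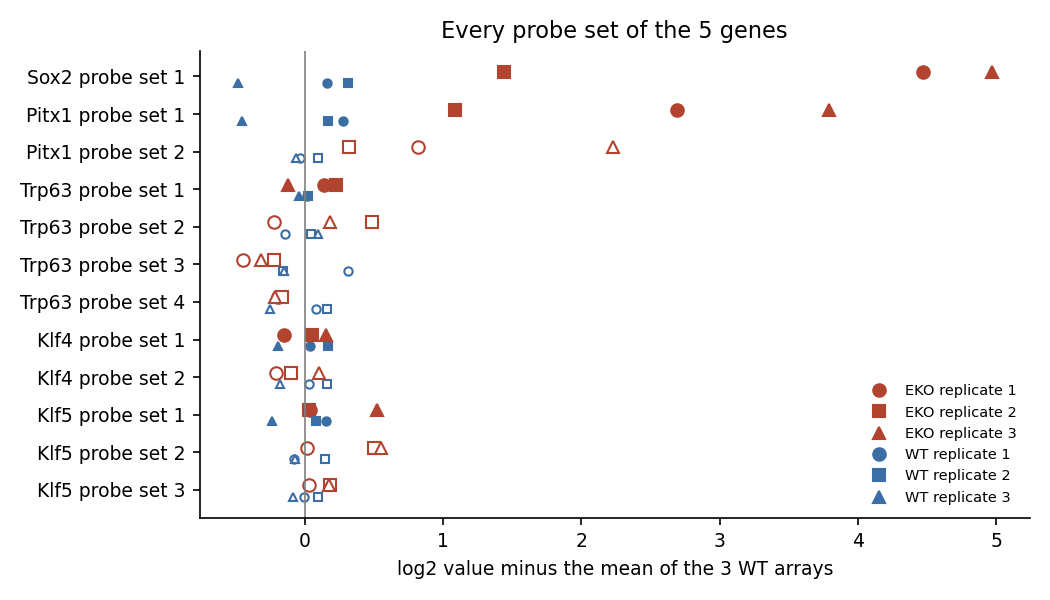
Log2 value minus the mean of the 3 WT arrays for all 12 probe sets, numbered from the brightest to the dimmest within a gene; red symbols are EKO and blue symbols WT arrays, and filled symbols mark the probe set that represents the gene. The Sox2 and both Pitx1 probe sets have all EKO arrays right of the WT arrays, by 1.12, 0.81 and 0.22, and the third Trp63 probe set has them on the left.

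Factors described as opponents were also set against each other within an array, which removes any shift of the whole array. Relative to its WT mean, the Sox2 to Klf4 log2 ratio was 4.62, 1.38 and 4.82 in EKO replicates 1, 2 and 3, against 0.13, 0.16 and -0.29 in WT replicates 1, 2 and 3. The Pitx1 to Klf4 ratio was 2.84, 1.03 and 3.64 in the EKO replicates, against 0.25, 0.01 and -0.26 in the WT replicates. Both ratios were higher in every EKO tumour than in any WT tumour, Klf4 itself varying little. They therefore largely repeat the separation of Sox2 and Pitx1 themselves, which was known when the members were chosen. The Trp63 to Klf4 ratio, at 0.29, 0.17 and -0.28 in the EKO replicates and -0.02, -0.13 and 0.15 in the WT replicates, overlapped.

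The genes nearest to Sox2 over the 6 arrays were found by the root mean square (RMS) difference between mean-centred log2 values, a description of the profile and not a test. The nearest was Hmga2, an architectural chromatin factor active in embryos and many tumours, with an RMS difference of 0.56. After it came Prkg2, a cGMP-dependent protein kinase (0.62), the membrane proteolipid gene Mal (0.65), Pitx1 (0.69), the proteoglycan gene Esm1 (0.76), Sprr3, a cornified envelope gene of mucosal epithelia (0.79), Sh2d5 (0.81) and the acyltransferase gene Glyat (0.83). Pitx1 thus stood at rank 4 by this measure, which depends on the size of the differences, with predicted genes skipped. It stood at rank 12 by Pearson correlation with predicted genes kept, so these ranks are not directly comparable. Both genes had been chosen with their differences on these arrays known, so their likeness is not independent of that choice. Hmga2 read 9.16, 6.09 and 10.005 in EKO replicates 1, 2 and 3, against 5.67, 5.86 and 5.77 in WT replicates 1, 2 and 3, the arrangement seen for Sox2.

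The 8 genes nearest to Pitx1 were Sh2d5 (RMS difference 0.29), Prkg2 (0.36), Mal (0.39), the protease inhibitor gene Slpi (0.40), the mucosal keratin gene Krt4 (0.42), the chemokine gene Ccl3 (0.44), Esm1 (0.45) and the glutathione transferase gene Gsta4 (0.49). The lists of 8 shared 4 genes, Esm1, Mal, Prkg2 and Sh2d5. Prkg2 read 9.31, 7.04 and 9.84 in EKO replicates 1, 2 and 3, against 5.89, 6.22 and 6.16 in WT replicates 1, 2 and 3. In all 11 genes of the 2 lists other than the members, EKO replicates 1 and 3 lay above EKO replicate 2, a property the choice by likeness fixes. Ranking by Pearson correlation over the same 6 arrays gave other lists, with 1 of the 8 in common for Sox2 and 0 of the 8 for Pitx1. Predicted genes were kept in that ranking, which by itself lowers the overlap.

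**Figure D3:**
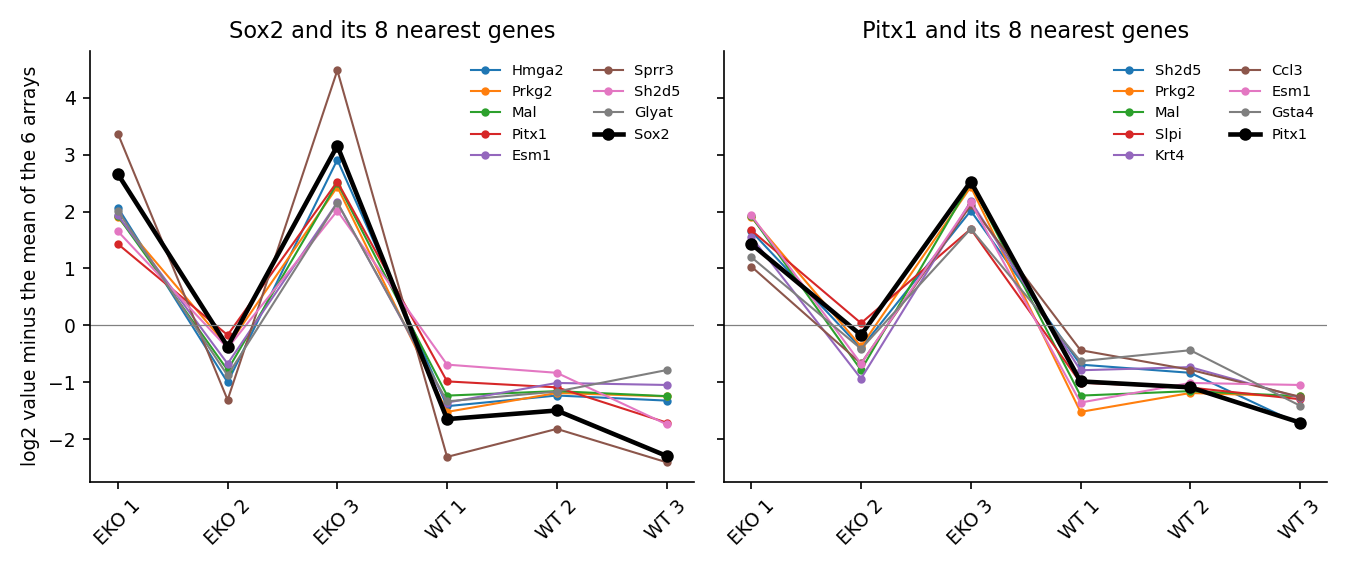
Log2 values minus each gene's mean over the 6 arrays for Sox2 (left) and Pitx1 (right), each in black with its 8 nearest genes in colour; lines join the values of one gene, with EKO arrays on the left and WT arrays on the right. EKO arrays 1 and 3 lie above the mean and above EKO array 2 in every gene drawn, and EKO array 2 does not lie above every WT array in 3 of the 11 genes other than the members, Krt4, Ccl3 and Glyat.

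Relatives of the 5 factors were measured to see whether their families differed too. None of the 144 genes in 9 related lists passed the adjusted threshold (limma, smallest adjusted p = 0.546). At an unadjusted p under 0.05, 22 of the 144 were called, or 15.3%, of which 20 were higher and 2 lower, whereas 7.13% of all genes were called, 3.44% higher and 3.7% lower. Leaving out WT replicate 1 gave 14 calls, and leaving out EKO replicate 2 gave 33. The lists were written with earlier results of these arrays known, so these shares are not independent of them.

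Other SOX genes lay between -0.48 for Sox17, an endothelial factor, and 0.57 for Sox15, a factor of epidermis and muscle. At the unadjusted level 2 of 20 measured genes of this list were higher (Sox11 and Sox13) and 1 was lower (Sox17), around a median of -0.01. That is 15% of the list, against 7.13% of all genes. Sox11, a factor of embryonic tissue, read 5.20, 4.82 and 5.10 in EKO against 4.62, 4.82 and 4.48 in WT tumours, under the array median throughout. Sox9 and Sox21, factors of the hair follicle, had differences of -0.26 and -0.04 and overlapped. Sox2ot, the long noncoding RNA in whose span Sox2 lies, read 2.79, 2.89 and 2.93 in EKO and 2.70, 2.86 and 2.91 in WT tumours, at the dim end of every array.

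The homeobox relatives of Pitx1 were dim. All 5 measured genes of the list, Pitx3, Otx1, Otx2, Crx and Gsc, lay below the array median in every array, with differences between -0.14 and 0.03 and 0 called at the unadjusted level. Of the p53 family, Trp73, the relative closest to p63, had a difference of 0.01. Tbx4, the hindlimb factor that acts with PITX1 in limb development, also lay below the array median in every array, at 4.42, 4.22 and 4.51 in EKO and 3.97, 4.34 and 4.20 in WT tumours. Hoxc10, a Hox gene of the hind body, had a difference of 0.38, and none of the 8 measured position genes was called. Their mean level was 5.35, 5.24 and 5.45 in EKO replicates 1, 2 and 3, against 5.28, 5.25 and 5.16 in WT replicates 1, 2 and 3.

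Of 14 other KLF genes, 2 were higher at the unadjusted level and 0 were lower (14.3%, against 7.13% of all genes), with a median of 0.00 after rounding. Klf12, a zinc-finger repressor, had the largest difference of this family at 1.13 (SE 0.22, adjusted p = 0.546). It read 7.31, 6.71 and 7.55 in EKO replicates 1, 2 and 3, against 6.14, 6.20 and 5.83 in WT replicates 1, 2 and 3, so that EKO replicate 2 was again the lowest EKO tumour. Klf12 passed without that array (difference 1.37, SE 0.15, adjusted p = 0.0419) and in no other of its 11 alternatives, where adjusted p was as high as 0.998. Without that array 42 of all 18193 genes passed, 38 higher and 4 lower in EKO. Klf10, a TGF-beta induced factor, was 0.32 higher by its mean. Klf6 was 0.25 lower with no overlap, as seen for 6.19% of all genes, but did not reach the unadjusted level.

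Genes described as p63 targets in epidermis were mostly higher by their means, 19 of 27 with a median difference of 0.09, whereas 50% of all genes had a higher EKO mean and their median was 0.00. At the unadjusted level 6 were higher and 0 lower, against 3.44% and 3.7% of all genes. Igfbp3, an insulin-like growth factor binding protein, had the smallest p: it read 10.52, 10.93 and 10.91 in EKO replicates 1, 2 and 3, against 9.97, 10.06 and 10.20 in WT replicates 1, 2 and 3 (difference 0.70, SE 0.134, adjusted p = 0.546). Here EKO replicate 2 lay with the other EKO tumours. Itga3, a basal integrin subunit, Cdh3, which encodes P-cadherin, Lad1, an anchoring filament protein, and the kinase gene Ripk4 had differences of 0.39, 0.36, 0.34 and 0.33, with no overlap between the groups. They were named by smallest p, a choice that favours such separation. In the list, 6 of 27 genes had every EKO value above every WT value, against 5.78% of all genes. The basal keratins Krt5 and Krt14 differed by -0.06 and -0.04. The mean level of the list was 9.74 to 9.84 in EKO and 9.62 to 9.67 in WT tumours. Without EKO replicate 2 its median was 0.03, with 5 genes higher and 1 lower at the unadjusted level.

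Genes linked to SOX2 in squamous tumours had higher EKO means in 17 of 18 cases, against 50% of all genes, with a median difference of 0.25. At the unadjusted level 4 were higher and 1 lower, against 3.44% and 3.7% of all genes. This list, too, was written with earlier results of these arrays known, and it holds Hmga2, the gene nearest to Sox2 above. Ccnd1, which encodes cyclin D1, read 11.20, 10.17 and 10.86 in EKO replicates 1, 2 and 3, against 9.59, 9.59 and 10.12 in WT replicates 1, 2 and 3 (difference 0.97, SE 0.274, adjusted p = 0.621). Wnt5a, a ligand of noncanonical Wnt signalling, had a difference of 0.70, and Krt18, a keratin of simple epithelia, one of 1.28, with WT replicate 3 inside the EKO range. Prom1, which encodes the stem cell surface protein CD133, was the 1 gene lower by its mean, at -0.44. Hmga2 had the largest difference of the list, 2.65 (SE 0.896, adjusted p = 0.63). Without EKO replicate 2 it was 1 of 42 genes of 18193 that passed (3.82, SE 0.242, adjusted p = 0.00605, as high as 0.998 in other settings). Its likeness to Sox2 goes with a low EKO replicate 2, so that call is not independent of the choice by likeness. Without that array 15 of 18 were higher by their means and the median was 0.31.

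Pluripotency and POU factors, some of them partners of SOX2 in embryonic cells, were not called in either direction: 0 of 19 reached the unadjusted level, and 11 lay below the array median in every array. Myc, which is among them, had a difference of 0.22 and the polycomb gene Bmi1 one of 0.16. Pou2f3 and Pou3f1, POU factors of epidermis, had differences of -0.30 and -0.31. For Pou2f3 every EKO value lay below every WT value, as seen for 6.19% of all genes.

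Differentiation factors and products, the side on which KLF4 acts, went both ways by their means, with medians near those of all genes. Those called at the unadjusted level were all higher. Of 23 differentiation factors, 13 were higher by their means and 10 lower, with a median of 0.06. At the unadjusted level 4 were higher and 0 lower (17.4%, against 7.13% of all genes). These were Ovol2, an epithelial repressor (0.32), Ppard, a lipid-activated nuclear receptor (0.44), Notch1, the receptor that promotes keratinocyte differentiation (0.54), and Nfe2l2, the oxidative stress factor NRF2 (0.80). Nfe2l2 read 11.36, 10.62 and 11.65 in EKO replicates 1, 2 and 3, against 10.63, 10.58 and 10.001 in WT replicates 1, 2 and 3, so that EKO replicate 2 fell among the WT values.

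Of 20 differentiation products, 14 were higher by their means, with a median of 0.04. At the unadjusted level 0 were lower and 2 (10%, against 7.13% of all genes) were higher, Lce1m and Tgm3, both of the cornified envelope. Tgm3, a transglutaminase, read 11.60, 9.57 and 12.07 in EKO replicates 1, 2 and 3, against 8.96, 9.13 and 9.43 in WT replicates 1, 2 and 3, again with EKO replicate 2 nearest the WT tumours. Without that array Tgm3 was 1 of 42 genes of 18193 that passed (2.66, SE 0.196, adjusted p = 0.0107, as high as 0.998 in other settings). It is among the 20 genes nearest to Sox2, a choice that favours a low EKO replicate 2. The suprabasal keratins Krt1 and Krt10 differed by 0.04 and 0.14 and overlapped. Without EKO replicate 2, 10 of the 20 were higher and 10 lower.

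**Figure D4:**
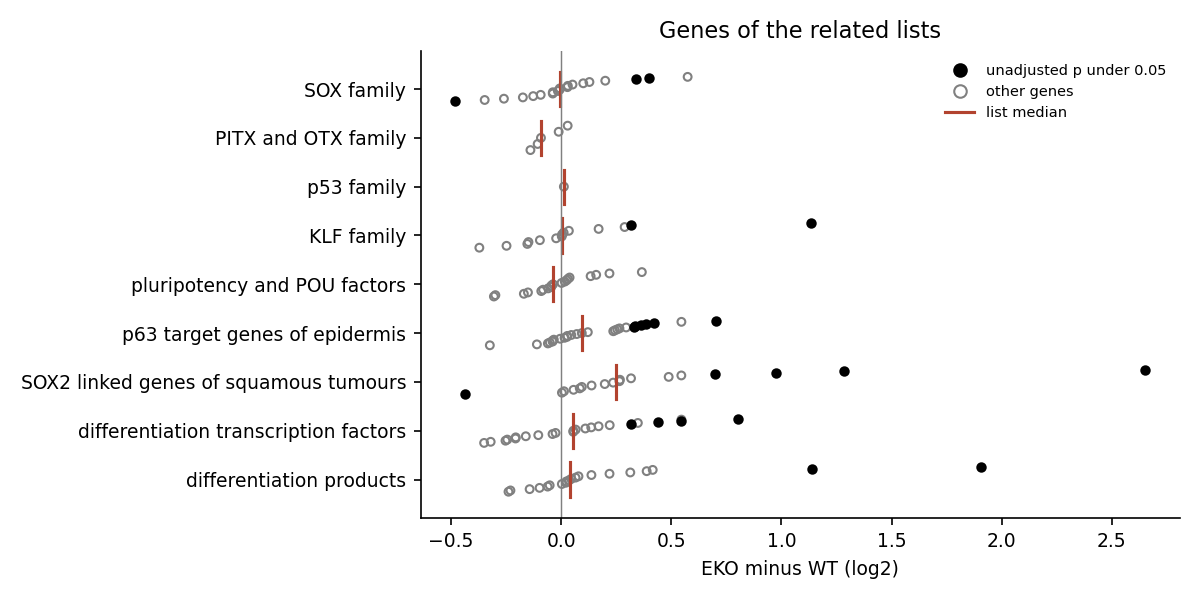
EKO minus WT difference of every measured gene of the 9 related lists (log2), the 5 members left out; filled points have an unadjusted p under 0.05 (limma), and red bars mark list medians. Points past 1 are Klf12, Krt18, Hmga2, Lce1m and Tgm3.

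Markers of oral and oesophageal epithelium, parts of which normally make SOX2 and PITX1, were high in the tumours that were high in Sox2 and Pitx1. All 5 measured genes of the list had higher EKO means and 4 were called at the unadjusted level, against 50% and 7.13% of all genes. Sprr3 and Krt4 were also among the genes chosen above by likeness to Sox2 or Pitx1. The resemblance of this list to Sox2 and Pitx1 is therefore not independent of that choice. The mean level of the list was 8.71, 5.94 and 9.60 in EKO replicates 1, 2 and 3, against 5.42, 5.60 and 5.18 in WT replicates 1, 2 and 3. Krt13, a mucosal keratin, read 10.73, 4.97 and 12.56 in EKO replicates 1, 2 and 3, against 4.06, 3.73 and 4.10 in WT replicates 1, 2 and 3 (difference 5.45, SE 1.72, adjusted p = 0.625). It passed without EKO replicate 2 (7.68, SE 0.501, adjusted p = 0.00651), as did Sprr3 (6.11, SE 0.346, adjusted p = 0.00416) and Krt4 (2.80, SE 0.242, adjusted p = 0.0173). In other settings none of the 3 passed, with adjusted p as high as 0.998. Without EKO replicate 2, 42 of all 18193 genes passed, 38 of them higher in EKO. The choice of Sprr3 and Krt4 by likeness favours a low EKO replicate 2, so their calls are not independent of it. Krt76, of the hard palate, lay below the array median in every array. The part of such cells in the Sox2 and Pitx1 values was not tested.

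Other cells of skin that make SOX2 were followed as well. Of 9 Merkel cell markers, 6 lay below the array median in all arrays, and Krt20, a keratin that defines these cells, read 3.98, 4.20 and 4.10 in EKO against 3.92, 4.43 and 4.10 in WT tumours. The mean level of the list was 4.70, 4.58 and 4.69 in EKO replicates 1, 2 and 3, against 4.31, 4.31 and 4.65 in WT replicates 1, 2 and 3, so that EKO replicates 1 and 3 were highest by a small margin. The largest differences of the list were those of the simple epithelial keratin genes Krt18 (1.28) and Krt8 (0.55), with Rab3c next at 0.22. Krt18 was the 1 gene called at the unadjusted level (11.1% of the list, against 7.13% of all genes). Both keratins also stand among the genes linked to SOX2. Dermal papilla markers had mean levels of 5.68 to 6.10 in EKO and 5.66 to 6.03 in WT tumours. At the unadjusted level 1 of 11, Fgf7, was lower (-0.34), or 9.09%, against 7.13% of all genes. Melanocyte and Schwann cell markers ran from 7.01 to 8.27 in EKO and from 6.26 to 8.37 in WT tumours, with EKO replicate 3, the tumour highest in Sox2, the lowest EKO value.

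Hair follicle markers varied most among WT tumours, from 8.63 to 11.93, and lay between 10.52 and 11.43 in EKO tumours, where EKO replicate 3 was the lowest. All 13 had higher EKO means, against 50% of all genes, with a median difference of 0.87, and 0 were called at the unadjusted level. Skeletal muscle markers lay between 5.98 and 7.08 in EKO and between 5.91 and 8.98 in WT tumours. All 6 had lower EKO means, with a median difference of -1.20, and 0 were called. The list means of fibroblast markers overlapped, at 10.45 to 11.01 in EKO and 10.48 to 11.15 in WT tumours. So did those of leukocyte markers, at 7.32 to 7.59 and 7.52 to 7.78, and of endothelial markers, at 6.59 to 6.85 and 6.53 to 7.20, EKO before WT in each. At the unadjusted level 1 of 8 fibroblast markers was lower, Dcn (-0.90), and 0 of 7 leukocyte markers were called. Of 6 endothelial markers, Kdr was higher (0.42) and Tek lower (-0.35). These calls were 12.5% of the fibroblast and 33.3% of the endothelial list, against 7.13% of all genes, and 0 passed the adjusted threshold. In none of these 5 lists did EKO replicates 1 and 3 both stand above the other 4 tumours, as they did for Sox2, Pitx1 and the oral and oesophageal markers and, by small margins, for the Merkel cell and position lists.

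**Figure D5:**
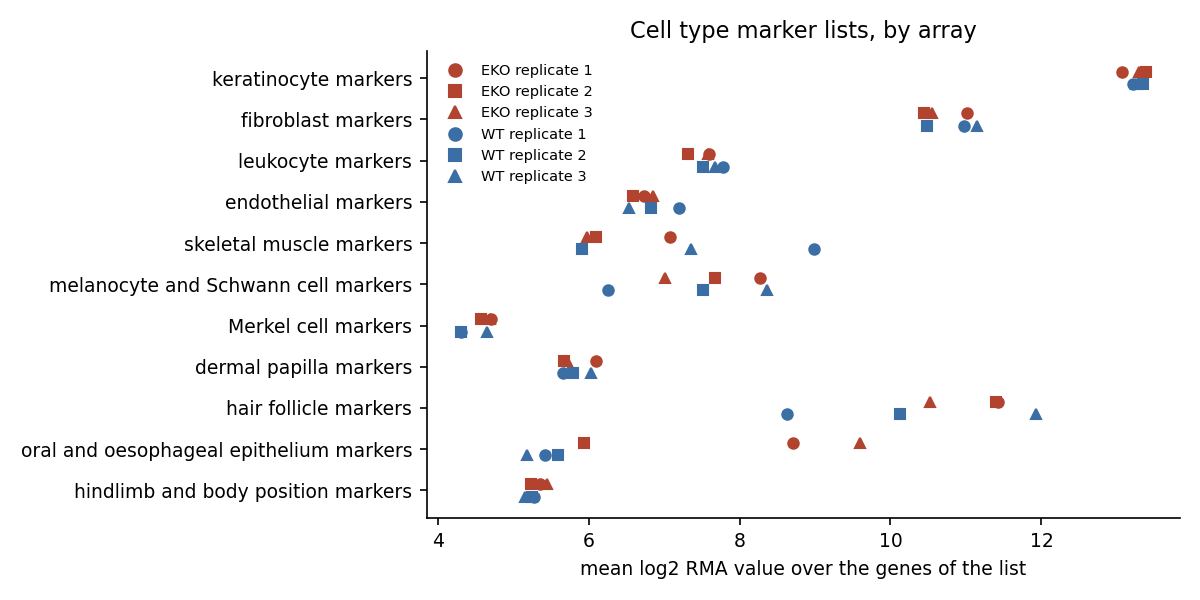
Mean log2 RMA value over the genes of each marker list in every array, EKO in red above WT in blue. The oral and oesophageal list separates EKO replicates 1 and 3, at 8.71 and 9.60, from the other 4 arrays, which lie between 5.18 and 5.94.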

How the data were processed

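Each array held biotin-labelled cRNA from 1 mouse (Affymetrix 3' IVT Plus reagents, according to the labels), 3 EKO and 3 WT. The values are log2 signals after RMA, which the authors deposited and which were used unchanged; the submitters' processing notes name RMA and Partek 6.6. RMA narrows differences near the floor, and neither detection calls nor scan batches are given in the sources used here. Of 45101 probe sets, 64 controls were left out, and 34945 with 1 gene symbol gave 18193 genes, each read from its brightest probe set. EKO minus WT was fitted over all genes with limma 3.58.1 in R 4.3.3 (lmFit, eBayes, two-sided, Benjamini-Hochberg, threshold 0.05). Beside this, calls at an unadjusted p under 0.05 were counted. The number of arrays limits the precision. The titles call the replicates biological.

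The members and lists were chosen with earlier results of these data known. Named genes were Fabp5, the members, their SOX, PITX and OTX, p53 and KLF relatives, up to 5 genes of each other list by smallest unadjusted p, 4 keratins, and the 8 genes nearest to Sox2 and to Pitx1. Predicted genes were skipped. Some listed genes were not used here. Alternatives were a replicate block, the upper 50% of means, repeated quantile normalization, centred medians, an intensity trend with robust variances, a mean over probe sets, a threshold of 0.1 and each array left out. On simulated data with 200 changed genes among 18193, in 10 simulations, 78.4% of genes shifted by 1 (log2) and 95.4% of those shifted by 2 were found, with 4.24% of calls false. The share found among genes whose EKO SD is as large as that of Sox2 (1.91) or Pitx1 (1.36) was not tested. Hmga2, Sprr3 and Krt13, with differences of 2.65, 4.36 and 5.45, did not pass the threshold with all 6 arrays. Promoters and gene spans came from RefSeq tables of GRCm38.p6.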

Additional observations from a re-analysis of the deposited data

How the results depend on the processing

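The differences of Pitx1 and Klf5 kept their sign under 12 alternatives each, between 1.82 and 3.24 and between 0.04 and 0.28. That of Sox2 lay between 2.96 and 4.72 with 1 array left out. Sox2 is not in the upper 50% of means, so that filter gave no value for it. Trp63 turned to -0.0718 with a mean over probe sets and lay between 0.01 and 0.18 with 1 array left out. Klf4 turned to -0.0248 under the same setting, and reached from -0.0759 (without WT replicate 3) to 0.105 with 1 array left out. Genes past the threshold numbered 1 to 42 with 1 array left out, 42 without EKO replicate 2 and 2 without WT replicate 2, and 1 under every other alternative run. Genes with an unadjusted p under 0.05 numbered 788 in the upper 50% of means, where 9096 genes were tested, and 838 (without WT replicate 1) to 1801 with 1 array left out. Of the related genes, 14 (without WT replicate 1) to 33 (without EKO replicate 2) were called with 1 array left out. The cause of these changes was not tested.

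No pairing of the arrays by the numbers in their titles was visible. Deviations from a group mean are tied to each other, so the r values below cannot show that pairing is absent. Same-numbered EKO and WT arrays had deviations from their group means that correlated over genes with r of -0.07, -0.09 and -0.34, and no array correlated best with its own number. With the replicate block 1 gene passed the threshold, 1125 genes and 23 related genes had an unadjusted p under 0.05, and the differences of the 5 genes were 3.63, 2.52, 0.08, 0.02 and 0.20 for Sox2, Pitx1, Trp63, Klf4 and Klf5, as without it.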

Other observations

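The resemblance to Sox2 and Pitx1 went beyond the 8 nearest genes, and 16 of the 20 nearest genes were common to both. Those farther down the lists, chosen by likeness and named after their values were seen, so with no test, included the defensin gene Defb4, which read 11.56, 9.48 and 11.66 in EKO replicates 1, 2 and 3, against 8.34, 8.56 and 8.94 in WT replicates 1, 2 and 3. Rbp7, a retinol binding protein gene, read 9.25, 6.87 and 9.56 in the EKO replicates, against 6.55, 6.83 and 6.76 in the WT replicates. Gpx2, a glutathione peroxidase gene, read 11.05, 9.88 and 12.01 in the EKO replicates, against 8.83, 8.27 and 9.16 in the WT replicates. In these 3 genes EKO replicate 2 lay above every WT tumour, but of the 23 genes in either list of 20, the members left out, it did so in 14 and not in 9, among them Krt4. It was the lowest EKO tumour in all 23, which the choice by likeness favours.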
